A study of Mus musculus with 2 samples.

Results

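The metallocarboxypeptidases examined here are 9 genes (Cpa1, Cpa3, Cpa4, Cpa6, Cpb1, Cpe, Cpd, Cpm and Cpz), read by 17 of the 34945 array probe sets that the platform annotation assigns to 1 gene symbol. The group was chosen by the mutant over wild type ratio of Cpa1, the largest excess among genes with signals above a set floor on both arrays, together with its enzyme family, so the ratio of Cpa1 is a description of these arrays and not a test. RNA came from gonad-mesonephros complexes, the embryonic gonad with the attached mesonephric kidney, of XX mouse embryos at E12.5, mid-gestation. One array held wild-type complexes and the other held complexes homozygous for Gata4ki, a knock-in allele of Gata4 that weakens the binding of the transcription factor GATA4 to its FOG cofactors. Each array carried RNA of 6 pairs of complexes pooled into 1 sample, and C57Bl/6 was named as the strain of the mutant, with none named for wild type. A single array per genotype gives no replicate error, so no test between groups was possible. In tissue read as a whole, more cells of a type and more RNA per cell cannot be told apart.

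Metallocarboxypeptidases use a bound zinc ion to remove the last residue from the C-terminal end of a protein or peptide. The digestive branch, to which Cpa1, Cpa3, Cpa4, Cpa6 and Cpb1 belong, is made as inactive proenzymes with an N-terminal propeptide. The regulatory branch, with Cpe, Cpd, Cpm and Cpz, acts mainly on basic residues in the secretory pathway, at the cell surface or in the matrix. Cpa1 is best known from pancreatic acinar cells and from the tip progenitors of the embryonic pancreas, not from the gonad.

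Values are signals per probe set on a linear scale. A floor of 24.0, the 50th percentile over both arrays, separates measured from unmeasured probe sets. The median log2 ratio (mutant over wild type) of the 21238 probe sets above the floor on at least 1 array was -0.0029. The spread of the ratio over probe sets that were above the floor on both arrays (robust SD) came to 0.37 where the mean signal was under 100, to 0.22 between 100 and 400 and to 0.13 beyond 400. These spreads are taken over different probe sets of a single pair of arrays. They mix measurement noise with real differences between the pools, which cannot be told apart, and do not give the variation between embryos. Defining genes of the labelled tissue were present, with 10 of 10 somatic gonad genes and 9 of 9 mesonephros genes above the floor. Their levels were not all alike on the arrays. The ovarian genes Fst (769.5 and 65.6) and Foxl2 (142.4 and 34.5) were 11.7-fold and 4.13-fold lower in the mutant. In the same list Nr0b1 (112.5 and 239.6) was 2.13-fold higher, and Zfpm2 had ratios of 0.56 and 0.97 on its probe sets. Of the 10 somatic gonad genes 5 had a ratio above 0, and the median was -0.0059. Among the mesonephros genes Calb1 (496.2 and 301.2) had the largest absolute ratio, at -0.72. In that list 8 of the 9 genes had a ratio below 0, with a median of -0.19 and summed signals of 5292 and 4042. Amhr2 (2620 and 1838) was the largest part of both sums, and Emx2 is counted in both lists. Wnt7a (-0.63 and 0.34) and Lhx1 (0.21 and a bound of -0.55) had measured probe sets of opposite sign. The part of these differences between the arrays in the ratios below was not tested. Gata4 itself gave signals of 240.8 and 286.2 on one probe set and of 49.2 and 34.6 on the other, and does not check the labels because the allele alters the protein.

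Of the 17 probe sets, 11 were above the floor on both arrays, none on 1 array only and 6 on neither. They represent 6 of the 9 genes, while Cpa4, Cpa6 and Cpb1 were not measured. Of the 11 probe sets, 1 was at least 2-fold higher in the mutant, that of Cpa1, and none was at least 2-fold lower. Over all measured probe sets the shares were 0.753% higher and 0.622% lower. Nothing is read from this comparison, since the same contrast chose the group. The median log2 ratio of the 11 probe sets was -0.02, with 5 above 0 and 6 below 0. Without Cpa1, the other 10 probe sets lay between -0.63 and 0.66, with a median of -0.05.

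**Figure D1:**
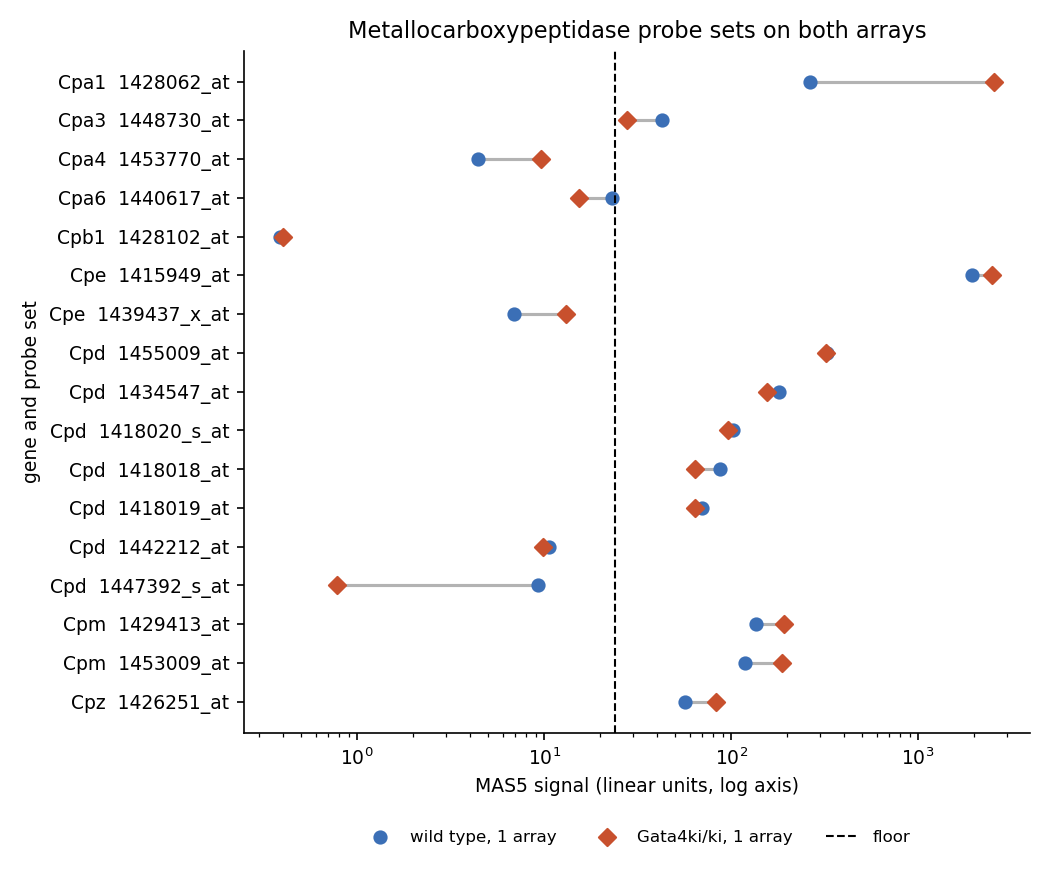
Signal of each of the 17 metallocarboxypeptidase probe sets (rows) on the wild-type array (circles) and the Gata4ki/ki array (diamonds), on a log axis in MAS5 units, with the floor of 24.0 as a dashed line. Cpa1 runs from 262.7 to 2547, whereas the other pairs to the right of the floor lie close together.

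Cpa1, the pancreatic carboxypeptidase that removes aromatic and branched aliphatic residues, gave 262.7 on the wild-type array and 2547 on the mutant array. The mutant signal was 9.69-fold higher, a log2 ratio of 3.28. The robust SD was 0.22 in the range that holds its wild-type signal and 0.13 in the range that holds its mutant signal. Cpa1 was well above the floor in wild type too, so the ratio is not a bound. The placental cathepsin gene Ctsj (1.29 and 282.6) has a ratio known only as a bound, at least 3.56, which lies above that of Cpa1. The ratio of the steroid enzyme gene Cyp17a1 (6.49 and 211.8), at least 3.14, cannot be placed against that of Cpa1. Cpa1 is read by a single probe set, as are 57 of the 104 genes at least 2-fold higher by their brightest probe set, so no other probe set on the array checks its value.

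**Figure D2:**
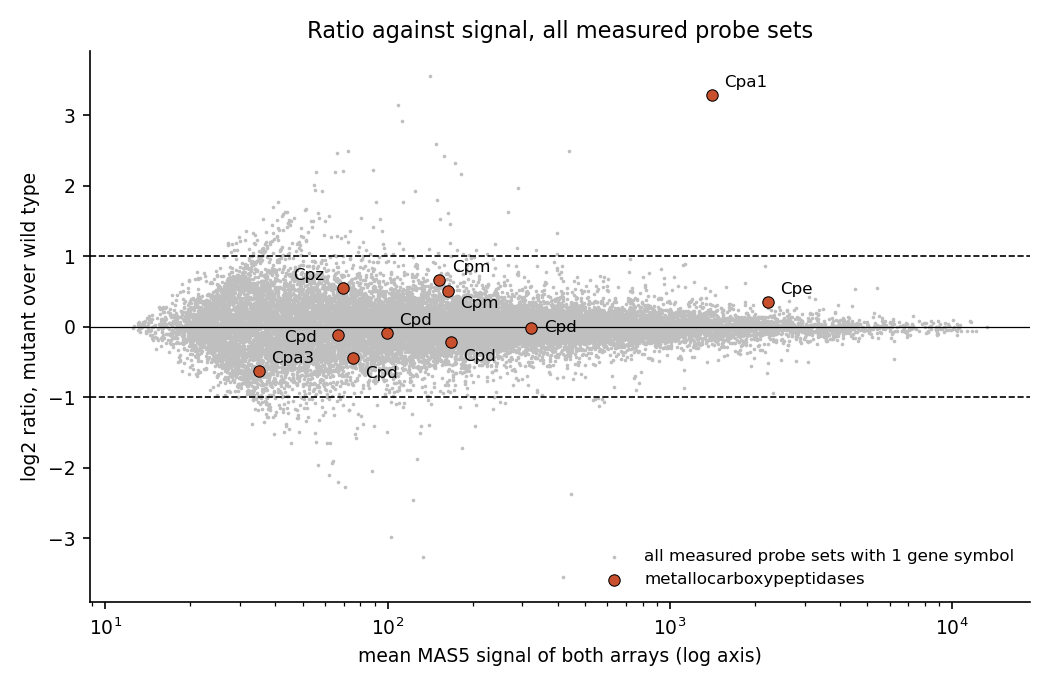
Log2 ratio of mutant over wild type against the mean signal of both arrays (log axis) for 21238 measured probe sets (grey) and the 11 measured metallocarboxypeptidase probe sets (red, outlined), with dashed lines at 2-fold. Cpa1 lies at 3.28, and the other metallocarboxypeptidases lie within 2-fold.

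The genes closest to Cpa1 in log2 ratio, by absolute difference over the 2 arrays and among genes above the floor on both, were Prg2, Dkk1, Vsnl1, Fcgr2b and Hsd3b1. Prg2, which encodes the major basic protein of eosinophil granules, had signals of 26.3 and 198.1 and a ratio of 2.91, which is 0.36 below that of Cpa1. The other 4 genes had ratios from 2.17 (Hsd3b1, a steroid dehydrogenase) to 2.48 (Dkk1, a secreted WNT antagonist). Such likeness over 2 arrays says that the ratios are similar in size and no more.

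Cpa1 lies in a row of carboxypeptidase genes on chromosome 6. In the RefSeq annotation of GRCm38.p6 the protein-coding genes before it include Cpa4 and Cpa5, and those after it are Cep41, the imprinted gene Mest, and Copg2. Cpa4 (4.45 and 9.67) and Cpa5 (5.28 and 7.46) were under the floor on both arrays. Cep41, which encodes a centrosomal protein, had ratios of -0.15, -0.15 and 0.22 on its 3 measured probe sets. Mest had signals of 6047 and 6202, a ratio of 0.04, and Copg2, a coat protein of transport vesicles, a ratio of 0.05. None of the measured neighbours within 5 genes on either side reached 2-fold, the largest ratio being 0.46 for Klf14, with signals of 30.4 and 41.8. Of all measured probe sets, 0.753% were at least 2-fold higher and 0.622% lower. Cpa1 was chosen for its ratio, so its distance from its neighbours was set in advance and nothing is read from it.

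**Figure D3:**
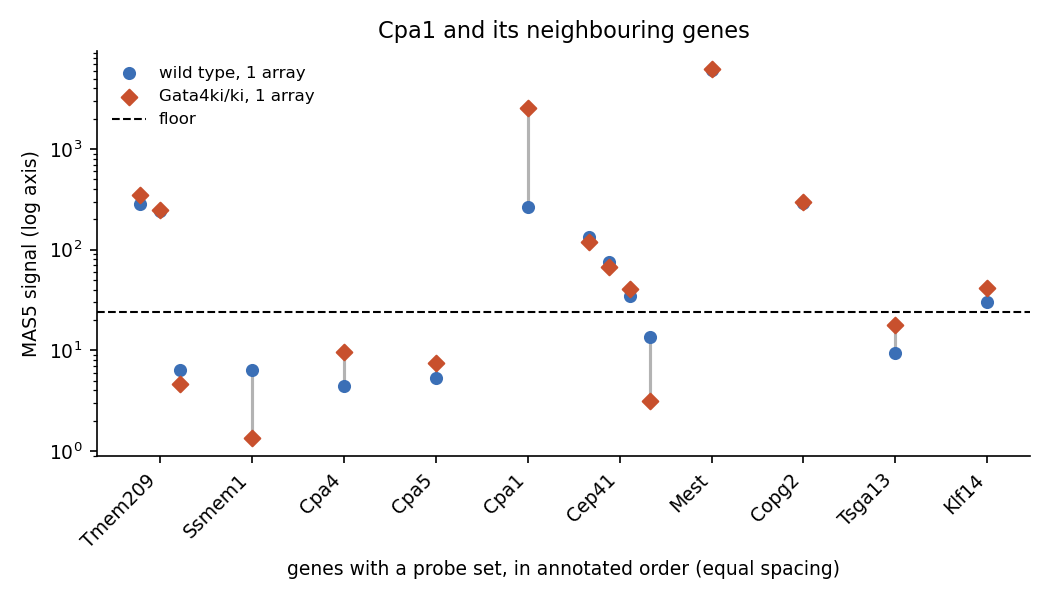
Signals on the wild-type (circles) and Gata4ki/ki (diamonds) arrays, on a log axis, for every probe set of Cpa1 and of neighbouring protein-coding genes with a probe set, in annotated order and equally spaced, with the floor of 24.0 dashed. Cpa1, chosen for its ratio, is the 1 gene whose arrays stand far apart above the floor, while Cpa4 and Cpa5 lie below it and Mest is bright on both.

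Because the allele alters a GATA factor, the promoters were searched for the letters AGATAA or TGATAA or AGATAG or TGATAG, the usual GATA core with its flanks, on both strands. RefSeq promoter windows (GRCm38.p6, 250 bases before and 50 after the gene start) were at hand for 7 of the 9 genes, all but Cpa6 and Cpe. At least 1 match was found in 3 of these 7, those of Cpa3, Cpb1 and Cpz, and in 29.8% of all 32851 windows. The window of Cpa1, shown because Cpa1 carries the excess, and those with a match, shown for contrast, are given 5′ to 3′ on the gene's strand, with matches in capitals. The windows are chr6:30638968-30639267 (plus strand) for Cpa1, chr3:20242132-20242431 (minus strand) for Cpa3, chr3:20275684-20275983 (minus strand) for Cpb1 and chr5:35525577-35525876 (minus strand) for Cpz.
Cpa1: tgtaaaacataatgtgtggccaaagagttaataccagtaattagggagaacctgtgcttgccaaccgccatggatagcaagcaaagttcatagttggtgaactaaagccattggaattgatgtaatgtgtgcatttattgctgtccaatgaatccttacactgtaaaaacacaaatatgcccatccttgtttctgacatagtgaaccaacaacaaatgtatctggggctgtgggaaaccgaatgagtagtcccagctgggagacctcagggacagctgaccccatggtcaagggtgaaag
Cpa3: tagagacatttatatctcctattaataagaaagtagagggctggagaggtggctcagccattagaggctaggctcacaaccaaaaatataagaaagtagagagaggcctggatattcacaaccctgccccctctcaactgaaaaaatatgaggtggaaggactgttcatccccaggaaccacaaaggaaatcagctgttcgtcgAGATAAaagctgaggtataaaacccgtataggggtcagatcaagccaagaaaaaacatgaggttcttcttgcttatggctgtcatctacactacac
Cpb1: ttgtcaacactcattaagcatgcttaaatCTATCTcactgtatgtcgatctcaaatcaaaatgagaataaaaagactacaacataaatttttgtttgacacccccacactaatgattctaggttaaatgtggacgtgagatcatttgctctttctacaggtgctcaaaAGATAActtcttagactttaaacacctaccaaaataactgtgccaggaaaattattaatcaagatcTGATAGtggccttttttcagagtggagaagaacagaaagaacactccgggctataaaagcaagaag
Cpz: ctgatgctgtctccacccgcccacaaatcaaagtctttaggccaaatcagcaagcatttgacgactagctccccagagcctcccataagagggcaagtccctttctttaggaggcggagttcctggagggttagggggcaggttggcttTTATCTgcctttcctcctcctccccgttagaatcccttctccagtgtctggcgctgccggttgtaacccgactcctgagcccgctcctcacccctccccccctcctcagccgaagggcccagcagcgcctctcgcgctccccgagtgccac

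The Cpa1 window held none of the 4 letter patterns, which says only that these letters are not within it. Cpa3 had AGATAA beginning 46 bases before its start. Cpb1 had 3 matches, beginning 221, 82 and 16 bases before its start, the first of them on the opposite strand. Cpz had 1 on the opposite strand, 101 bases before its start. Of these 3 genes, Cpb1 was not measured, Cpa3 had a ratio below 0 and Cpz a ratio above 0. A match is a run of letters and was not shown to be bound.

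The other digestive-type enzymes had low signals. Cpb1, the pancreatic enzyme that removes lysine and arginine and is made beside Cpa1 in acinar cells, had signals of 0.39 and 0.40, both far under the floor. Cpa4 had signals of 4.45 and 9.67, and Cpa6, an enzyme held in the extracellular matrix, had signals of 23.1 and 15.4. These values have no order, and no fold is given for them. Cpa3, the carboxypeptidase of mast cell granules, gave 42.6 on the wild-type array and 27.6 on the mutant array. The mutant was 1.54-fold lower, a log2 ratio of -0.63 at a signal where the robust SD was 0.37. Both values were near the floor, and Cpa3 was not measured once the floor was raised to the 60th percentile.

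Among the regulatory enzymes, Cpm and Cpz had higher signals in the mutant and Cpe a slightly higher one. Cpm, an enzyme anchored to the outer face of the cell membrane, had signals of 135.6 and 191.7 on one probe set and of 118.1 and 187.1 on the other. The mutant was 1.41-fold and 1.58-fold higher, and the log2 ratios of 0.50 and 0.66 differed from each other by less than 0.22, the robust SD at this signal, and each exceeded it. Cpz, a matrix enzyme with a Frizzled-like domain that can bind WNT proteins, had signals of 56.7 and 82.9. Its ratio of 0.55 rests on 1 dim probe set, where the robust SD was 0.37. Cpe, which trims basic residues from peptide hormone precursors in secretory granules, had signals of 1952 and 2491 on its bright probe set. The ratio of 0.35 compares with a robust SD of 0.13, and the mutant was 1.28-fold higher. The second Cpe probe set, with a suffix for shared sequence, was under the floor on both arrays (6.92 and 13.2).

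Cpd, which trims peptides and growth factor precursors in the trans-Golgi network after furin has cut them, is read by 7 probe sets and gave nearly equal signals. The brightest gave 324.4 and 320.9 in wild type and mutant, a log2 ratio of -0.02. The others above the floor had 180.5 and 154.9, 102.3 and 96.2, 86.9 and 64.1, and 69.7 and 64.0. All 5 measured ratios were below 0, from -0.44 to -0.02, with a median of -0.12 and an SD over probe sets of 0.16. These probe sets read 1 transcript pool and are not replicates, and 4 of the 5 ratios are smaller than the robust SD at their signal. The remaining 2 were under the floor, with 10.6 and 9.85, and with 9.27 and 0.78.

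In the order of log2 ratios, Cpa1 stood 2.61 above the next probe set, that of Cpm at 0.66. Cpm, Cpz and Cpe followed each other by at most 0.15, which is less than the larger robust SD of each neighbouring pair. Cpe was 0.37 above the highest Cpd probe set, more than the 0.22 at that signal. The lowest Cpd probe set and Cpa3 differed by 0.19, less than 0.37. At 1.5-fold, 2 of the 11 probe sets were higher (Cpa1 and 1 of Cpm) and 1 was lower (Cpa3), where 3.7% and 4.03% of all measured probe sets were.

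Related enzymes and their inhibitors showed no 2-fold difference. Genes are represented here by their brightest probe set, and 0.846% of 12300 measured genes were at least 2-fold higher and 0.537% at least 2-fold lower, with a median log2 ratio of 0.0062. At these shares lists this short would mostly hold no such gene. Of 10 other genes of the same enzyme family on the array, 6 were measured, with ratios from -0.36 to 0.37 and a median of 0.13. Agtpbp1 and Agbl5, cytosolic enzymes that trim tubulin tails, had ratios of 0.37 and -0.36, but the second Agbl5 probe set gave 0.55. Aebp1, a matrix protein of the family without clear enzyme activity, had 0.30 on one probe set and -0.18 on the other. Agbl3 had -0.34 at signals of 30.4 and 24.1. Of 9 inhibitor and unrelated carboxypeptidase genes, 7 were measured, with ratios from -0.05 to 0.28. In that list Lxn, which encodes latexin, an inhibitor of A-type carboxypeptidases, had signals of 612.1 and 619.0, a ratio of 0.02. The lysosomal enzymes Scpep1 and Ctsa had ratios of 0.14 and 0.13 on their brightest probe sets, but -0.16 and a bound of -0.46 on another probe set each. Ace, which removes dipeptides, had a ratio of 0.28 at signals of 27.1 and 33.1.

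Genes for proteins that work beside Cpe and Cpd in precursor processing were likewise within 2-fold. Of all measured genes 0.846% were at least 2-fold higher and 0.537% lower, so a list this short would mostly hold none. Of 15 genes on the array 11 were measured, and their median ratio was 0.02. Furin, the convertase of the trans-Golgi network, had signals of 133.2 and 142.3, a ratio of 0.10. Chga, a granule protein of neuroendocrine cells, had signals of 48.8 and 26.2, a ratio of -0.90. Pam, which amidates peptide ends, had a ratio of 0.46, Scg3 of -0.23 and Pcsk6 of -0.13. The convertase Pcsk1, which cuts precursors before Cpe trims them, was under the floor on both arrays (15.3 and 1.12).

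Markers of the cell types that classically make Cpa1 and Cpa3 were mostly under the floor. Over the whole array, 12300 of 18193 genes were measured by their brightest probe set. Of 20 pancreatic acinar genes on the array, 14 lay under the floor on both arrays. These included the acinar transcription factors Ptf1a (1.38 and 0.52) and Rbpjl (2.26 and 0.89), the trypsinogen gene Prss2 (3.87 and 15.7), the elastase Cela3b (0.74 and 0.81) and the lipase Cel (2.66 and 1.86). The 6 measured genes had a median ratio of 0.04, and 1 was at least 2-fold lower, the lipase-related Pnliprp2 with 61.6 and 11.4. Its ratio is a bound of -1.36, and its other probe set (42.7 and 7.38) had a bound of -0.83. Ctrb1, a chymotrypsinogen, had 1.65 and 38.0, a bound of 1.58-fold or more, and Spink1, a trypsin inhibitor, had 73.5 and 81.6. The list summed to signals of 398.9 and 406.0 in wild type and mutant, most of it from a few measured genes such as Cela1, Spink1, Nr5a2 and Pnliprp2. Of 17 mast cell genes 11 were under the floor on both arrays, among them the protease genes Mcpt4, Cma1, Tpsb2 and Tpsab1 and the IgE receptor genes Fcer1a and Ms4a2. The other 6, including Kit and Gata2, are known from germ cells, endothelium or other cells too, and none reached 2-fold. By brightest probe set all 6 ratios were above 0, with a median of 0.22. Kit had ratios of 0.51 and -0.10 on its probe sets, Gata2 of 0.41 and 0.07, and Hdc, of the same list, of 0.07 and -0.36. The list summed to 1289 and 1556.

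Some genes of trophoblast and of steroid-producing cells were at least 2-fold higher on the mutant array, as Cpa1 was, and others of the same lists were not. Of 18 trophoblast genes on the array, 10 were measured, 3 were at least 2-fold higher and none 2-fold lower, with a median of 0.45 and sums of 1253 and 2014. The 3 were Ctsj, Ctsq (0.81 and 77.7) and Prl7d1 (3.20 and 54.8), placental cathepsins and a prolactin-family hormone, all known as bounds, and all known to be high when the list was written. Plac1 had a ratio of 0.57, and the spongiotrophoblast markers Tpbpa (2.23 and 4.94) and Tpbpb were under the floor on both arrays, 2 of 8 genes of the list that were. Tfpi2 had a ratio of -0.10. Most of both sums of this list came from Rhox9 (463.6 and 583.0), Rhox6 (398.9 and 493.8) and Plac1 (247.1 and 366.5). None of these reached 2-fold. Of 9 steroidogenic genes, also listed with earlier results known, 4 were at least 2-fold higher and none 2-fold lower, with a median of 0.55 and sums of 1481 and 2351. Cyp17a1, the enzyme of androgen precursors, had signals of 6.49 and 211.8, Hsd3b1 of 66.1 and 297.0, Inha, the inhibin alpha chain, of 118.6 and 461.7, and Star, the cholesterol carrier, of 19.1 and 91.7 on its brightest probe set. The 1 Star probe set above the floor on both arrays had 28.8 and 32.4, a ratio of 0.17, and the remaining one had 16.0 and 45.1, a bound of 0.91. Fdx1 and Scarb1 had ratios of 0.03 and -0.25. The part of these cell types in the Cpa1 signal was not tested.

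**Figure D4:**
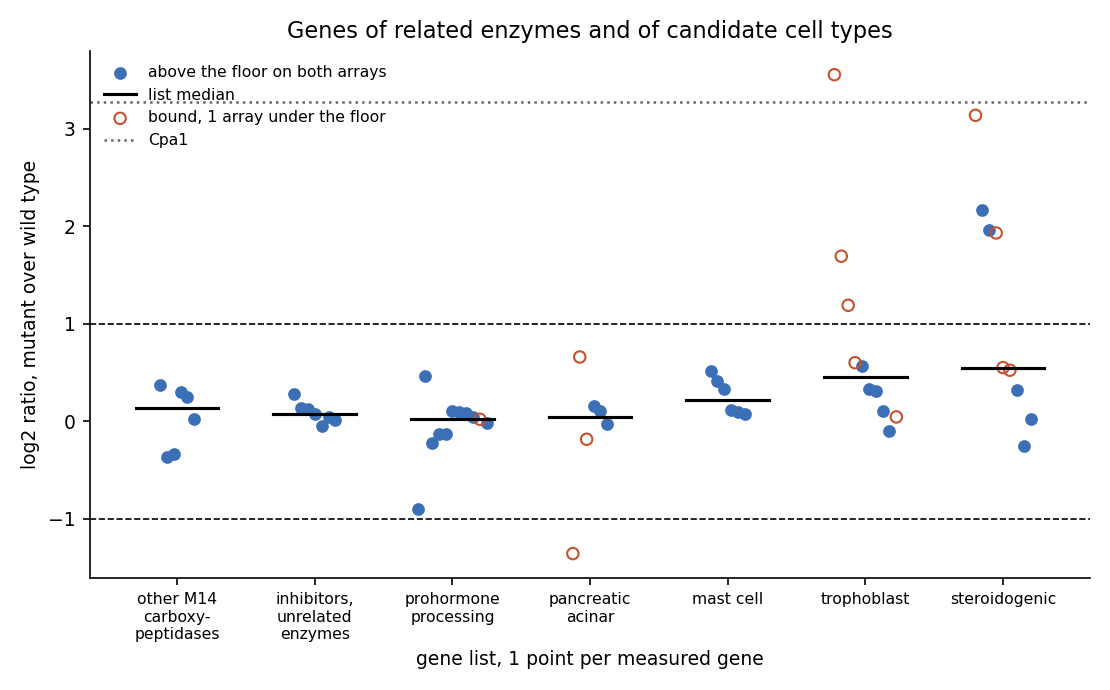
Log2 ratio of mutant over wild type for each measured gene of 7 lists (filled: above the floor on both arrays; open: bound with 1 array under the floor), with list medians as bars, 2-fold as dashed lines and Cpa1 at 3.28 as a dotted line. Related enzymes lie within 2-fold, and genes beyond 2-fold on the high side are, of these 7 lists, found in the trophoblast and steroidogenic ones. The mesonephros list and the somatic gonad list, which holds Nr0b1 at 1.09, are not shown.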

How the data were processed

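Expression was read on 2 oligonucleotide arrays, 1 per genotype, with 45101 probe sets each. The submitters' processing notes name MAS5 for the deposited values, which are linear signal intensities. Of its version, detection calls and filters nothing was given in the material used here. The mean without the top and bottom 2% was 150.0 on both arrays, so the deposited values share 1 global scale. The number of arrays limits the precision. Genes were named through the platform annotation, in which 34945 probe sets had 1 symbol, 932 had several and 9160 had none; 64 control probe sets were left out.

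Values were used as deposited, values under the floor were set to it, and log2 ratios are mutant minus wild type. A ratio with 1 array under the floor is a bound. The robust SD is 1.4826 times the median absolute deviation. Named were all 9 members, up to 4 genes per list by absolute ratio, defining markers under the floor, the 5 genes nearest to Cpa1 and Gata4. Other genes, such as Ctsj, the neighbours of Cpa1, Furin, Lxn, Fdx1 and Spink1, were named after their values were seen. The members and lists were chosen with earlier results of these data known. The neighbours of Cpa1 and the promoter search were added after seeing the data. The 2-fold count was tried on simulated data, with changes set only in probe sets well above the floor. Recovery of changes in dim probe sets was not checked. Python 3.11.15, pandas 2.3.3 and statsmodels 0.14.6 (loess) were used. The alternatives tried were 2 other floors, a pseudocount, no floor, 3 scalings, probe sets without suffix, genes in place of probe sets and a 1.5-fold threshold.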

Additional observations from a re-analysis of the deposited data

How the results depend on the processing

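The log2 ratio of Cpa1 stayed between 3.16 and 3.28 in the 8 settings that give it a value, and the other measured ratios of the group moved by less than the robust SD in 78 of 78 cases. Many of these cases could not move. Where both arrays stay above the floor, shifting or omitting the floor, or dropping suffixed probe sets, returns the same ratio. Without a floor, 2 probe sets of the group were at least 2-fold higher, Cpa4 being added, and 1 was lower, a Cpd probe set with 9.27 and 0.78. At 1.5-fold, 2 were higher and 1 lower. The counts over all genes, 160 higher and 132 lower, moved to 354 and 320 with a 40th percentile floor, 57 and 50 with a 60th percentile floor, 91 and 68 with a pseudocount, 3780 and 3772 without a floor, 786 and 855 at 1.5-fold, 104 and 66 for genes by their brightest probe set, and 88 and 48 for genes by their median. These changes follow from which low signals are counted, from the unit or from the threshold. No paired analysis was possible because each group has 1 array, and for the same reason no replicate could be left out. Signals near the floor limit what can be said of Cpa3, Cpa4, Cpa6 and Cpz.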
